A study of Mus musculus with 6 samples.

Results

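The genes described here encode enzymes, or subunits of complexes, that remove or prevent R-loops. They were chosen by name, with earlier results of these data known: Rnaseh1, Rnaseh2a, Rnaseh2b, Rnaseh2c, Aqr, Top1, Top3b, Xrn2 and Thoc1, 9 of the 55565 genes listed. All 9 were among the 26898 genes with a count in at least 1 library, and all 9 had a mean above 10 CPM (counts scaled to the size of the library). Their mRNA was compared by bulk RNA sequencing between wild-type (WT) and Mcm8 knockout (KO) mouse embryonic fibroblasts (MEFs), with 3 libraries of each genotype. The MEFs came from trunks of embryonic day 13.5 embryos of matings between Mcm8 heterozygotes of mixed C57BL/6J and ICR background. Cells of both genotypes were immortalized with the SV40gp6 lentivirus, selected with puromycin, and cultured in DMEM with fetal bovine serum, so WT and KO carried the same transforming gene. The methods call the repeats biological, without saying whether they came from separate embryos or from repeated cultures of 1 line, so p-values measure only the spread between these libraries. In bulk samples, fewer cells of a type and less RNA per cell cannot be told apart.

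An R-loop forms when a nascent transcript pairs again with its DNA template and displaces the other strand. RNase H1 and RNase H2 cut the RNA strand of such hybrids. RNase H2 is a trimer of a catalytic A subunit and the B and C subunits, and it also starts the excision of single ribonucleotides that polymerases leave in DNA. Mutations in its genes cause Aicardi-Goutières syndrome, an inflammatory disease with an interferon response. Other factors keep R-loops from forming. Topoisomerases relax the negative supercoils behind RNA polymerase, THO packages the nascent transcript for export, aquarius is a helicase of the spliceosome, and XRN2 degrades the uncapped transcript downstream of the poly(A) site during termination. MCM8 is a helicase of the minichromosome maintenance family that acts with MCM9 in recombination, and the study asked how R-loops accumulate when it is lost. The comparison below asks whether the mRNA of the genes named above differed between the genotypes.

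None of the 9 genes was called different between KO and WT MEFs with edgeR at an adjusted p below 0.05, and 2 of the 9, Rnaseh2c and Thoc1, had an unadjusted p below 0.05. With DESeq2, 0 were called and 1 had an unadjusted p below 0.05. None passed the thresholds for differentially expressed genes, which add an absolute log2 fold change above 1. Over all genes tested, 9.0% were called and 2.42% passed those thresholds. Among the 9378 genes with a mean of at least 10 CPM, a level that each member reached, 17.1% were called with edgeR, 13.5% were called with DESeq2 and 31.8% had an unadjusted p below 0.05. The 95% interval of every member lay within 1.5-fold in either direction, and the outermost bounds were 0.769-fold and 1.36-fold. Changes of 1.5-fold or more in these mRNAs, relative to the other genes of a library, therefore lay outside all 9 intervals, whereas smaller differences lay within some.

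Promoter sequences from RefSeq were used for 6 of the 9 genes, each running from 250 bases before the start of transcription to 50 bases after it, on build GRCm38.p6. Those of Rnaseh2c and Xrn2 are shown because they were the members whose WT and KO levels did not overlap, and those of Aqr and Top3b because they, with Xrn2, held the ETS letters. Capitals mark the letters CCGGAAGT, or the same letters read from the opposite strand, and all 4 sequences run 5′ to 3′ on the strand of the gene. Rnaseh2c lies at chr19:5601623-5601922 on the plus strand, Xrn2 at chr2:147012749-147013048 on the plus strand, Aqr at chr2:114175290-114175589 on the minus strand and Top3b at chr16:16870486-16870785 on the plus strand.
Rnaseh2c: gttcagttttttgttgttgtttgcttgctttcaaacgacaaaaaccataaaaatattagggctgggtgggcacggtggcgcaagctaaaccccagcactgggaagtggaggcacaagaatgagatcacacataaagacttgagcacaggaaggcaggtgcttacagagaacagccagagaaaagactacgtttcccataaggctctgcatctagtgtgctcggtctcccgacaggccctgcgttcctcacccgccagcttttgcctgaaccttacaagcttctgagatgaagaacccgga
Xrn2: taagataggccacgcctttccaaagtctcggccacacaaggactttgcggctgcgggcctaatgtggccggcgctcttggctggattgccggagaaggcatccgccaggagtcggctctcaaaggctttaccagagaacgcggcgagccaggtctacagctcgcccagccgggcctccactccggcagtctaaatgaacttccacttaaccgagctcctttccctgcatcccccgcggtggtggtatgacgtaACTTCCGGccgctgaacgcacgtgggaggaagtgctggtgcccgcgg
Aqr: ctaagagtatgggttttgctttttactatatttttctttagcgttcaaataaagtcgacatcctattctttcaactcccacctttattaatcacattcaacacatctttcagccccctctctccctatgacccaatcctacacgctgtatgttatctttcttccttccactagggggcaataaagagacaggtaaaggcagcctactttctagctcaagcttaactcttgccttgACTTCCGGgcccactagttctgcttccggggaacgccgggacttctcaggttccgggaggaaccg
Top3b: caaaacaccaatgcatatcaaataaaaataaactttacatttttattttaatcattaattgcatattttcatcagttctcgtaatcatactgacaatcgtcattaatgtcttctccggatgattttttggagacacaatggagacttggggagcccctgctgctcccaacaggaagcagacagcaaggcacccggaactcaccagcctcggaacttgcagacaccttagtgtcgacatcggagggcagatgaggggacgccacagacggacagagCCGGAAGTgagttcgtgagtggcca

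The ETS letters CCGGAAGT, searched on both strands, stood in 3 of the 6 promoters, against 3.89% of 32851 promoters of the same length and 9.08% of the 9478 promoters of genes with at least 10 CPM. They lay from base -15 to -8 on the reverse strand in Aqr, from base 4 to 11 on the reverse strand in Xrn2 and from base 26 to 33 in Top3b, counted from the transcription start. CCAAT was present in Aqr, Rnaseh2a and Top3b, 3 of 6, against 37.4% of all promoters. None of the 6 held the E2F letters TTTCCCGC, TTTGGCGC or TTTCGCGC, the NRF1 letters GCGCATGC or the YY1 letters AAGATGGC, which were in 1.84%, 2.71% and 2.75% of all promoters. GC content was 45.7% in Aqr and in Top3b, 49.7% in Rnaseh2c, 58.3% in Rnaseh2a, 62.0% in Xrn2 and 64.0% in Top1. The number of CpG dinucleotides ran from 9 in Aqr and Rnaseh2c to 29 in Top1, with a median of 22 over promoters of genes with at least 10 CPM. The 3 genes with the ETS letters had log2 fold changes of 0.13 (Aqr), -0.08 (Xrn2) and 0.10 (Top3b), and none was called.

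Library totals ran from 12722979 to 21022755 counts. The library WT1, the shallowest, stood apart: its counts differed from those of WT2 and WT3 with a chi-square of 14.3 and 13.2 per degree of freedom, against 4.40 between WT2 and WT3 and 2.63 to 3.05 between KO libraries. Values without it are given beside the calls on members that turned on it. Mcm8, the targeted gene, had 13.8, 16.6 and 12.8 CPM in WT and 4.20, 4.45 and 4.12 CPM in KO, a log2 fold change of -1.75 (SE 0.159, edgeR adjusted p = 4.45e-26), so its transcript was lower but still counted in KO. Fibroblast markers were abundant in both genotypes, with summed levels of 24652 to 29131 CPM in WT and 28611 to 29448 CPM in KO. Of these 10 markers 3 rose and 3 fell, among them Thy1 (-1.03), Pdgfrb (-0.74), Fn1 (0.29) and Col3a1 (0.29, all log2). Fn1 was at 0.12 without WT1, and it was not called with DESeq2 (adjusted p = 0.364), which called 5 of the 10, or with either other gene filter (edgeR adjusted p = 0.106 and 0.105). Epithelial markers summed to 3.56 to 5.17 CPM in WT and 12.3 to 13.3 CPM in KO, with Krt18 higher by 2.94 and Krt19 by 0.85 on the log2 scale and Krt5 at 0, and 3 of the 7 tested rose, the third being Krt8. Mesothelial markers summed to 11.8 to 15 CPM in WT and 53.3 to 60.8 CPM in KO, with Msln higher by 3.95 and Bnc1 lower at -0.60 and Lrrn4 at 0, so that 2 of 5 rose and 1 fell. The other riser was Krt19, which is in the epithelial list too, so Msln was the only mesothelial marker outside that list that rose. Bnc1 was not called with DESeq2 (adjusted p = 0.0983). Of 5 neural markers 2 rose, Tubb3 (0.67) and Sox2, with sums of 66.3 to 75.4 CPM in WT and 72.7 to 79.9 CPM in KO and Sox10 at 0. No endothelial, blood, muscle or germ cell marker was called with edgeR, none of the 16 tested had an unadjusted p below 0.05, and DESeq2 called 0 of them (its adjusted p was not computed for 13, at low counts). Their sums reached at most 7.74 CPM, and Emcn, Adgre1, Hba-a1, Hbb-bs, Myod1, Dppa3 and Pou5f1 were at 0. The Y-linked genes Ddx3y, Uty, Kdm5d and Eif2s3y were higher in KO by 1.95 to 2.46 and Xist lower at -1.31 (log2). Every library held reads of both kinds. Xist was at 940, 1359 and 1290 CPM in WT and 474, 494 and 475 CPM in KO. Kdm5d was at 5.25, 5.70 and 5.26 CPM in WT and 23.4, 25.3 and 22.6 CPM in KO. These levels went with genotype, so effects of sex and of Mcm8 loss cannot be told apart here. Whether the libraries came from embryos of 1 sex or from mixed cells was not tested. The part of these marker and sex-linked differences in the values below was not tested.

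Rnaseh1 (ENSMUSG00000020630), at chr12:28699601-28709588 on the plus strand of GRCm39, encodes the RNase H that works as a single chain in the nucleus and in mitochondria. Its level was 16.7, 14.1 and 17.3 CPM in WT and 17.1, 19.2 and 17.4 CPM in KO, from 198 to 362 counts a library. The genotypes overlapped, with WT2 lowest and KO2 highest. The log2 fold change was 0.15 (SE 0.118, 95% interval -0.08 to 0.38, edgeR adjusted p = 0.555), and it was 0.07 without WT2 and 0.22 without WT3. Rnaseh1 had the fewest counts of the 9 genes and the widest interval, with bounds of 0.947-fold and 1.30-fold.

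The RNase H2 subunits lie on separate chromosomes, and all had estimates above 0. Rnaseh2a (ENSMUSG00000052926, chr8:85683239-85696396, minus strand), the catalytic subunit, had 45.6, 39.8 and 36.9 CPM in WT and 43.9, 41.4 and 49.5 CPM in KO. WT1 lay above the libraries KO1 and KO2, so the groups overlapped. Its log2 fold change was 0.14 (SE 0.089, 95% interval -0.03 to 0.32, edgeR adjusted p = 0.431). Rnaseh2b (ENSMUSG00000021932, chr14:62530038-62610441, plus strand), the subunit that binds the sliding clamp PCNA, had 24.9, 18.8 and 23.8 CPM in WT and 27.4, 23.7 and 22.0 CPM in KO. Here WT2 was the lowest and KO1 the highest library, and among the other 4 both WT libraries lay above both KO libraries. The log2 fold change of Rnaseh2b was 0.12 (SE 0.105, 95% interval -0.09 to 0.32, edgeR adjusted p = 0.614), and it was 0.0075 without WT2.

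Rnaseh2c (ENSMUSG00000024925, chr19:5651901-5657047, plus strand) encodes the subunit that pairs with RNASEH2B to hold the catalytic subunit. It had 32.8, 26.3 and 29.8 CPM in WT and 33.2, 36.4 and 36.7 CPM in KO, from 369 to 704 counts a library. Each KO library was above each WT library, with WT1 and KO1 nearly touching. This was the only member higher without overlap, and 16.0% of all genes with at least 10 CPM were. The log2 fold change was 0.26 (SE 0.096, 95% interval 0.07 to 0.45), with an edgeR adjusted p of 0.072.

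The calls on RNase H2 turned on single WT libraries. Without WT1, edgeR called Rnaseh2a at a log2 fold change of 0.23 (adjusted p = 0.046) and Rnaseh2c at 0.33 (adjusted p = 0.00432), and 26.1% of all genes with at least 10 CPM were called in that fit. Rnaseh2a was at 0.07 without WT3, and Rnaseh2c at 0.18 without WT2, and neither was called there. Rnaseh2b was not called in any fit.

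**Figure D1:**
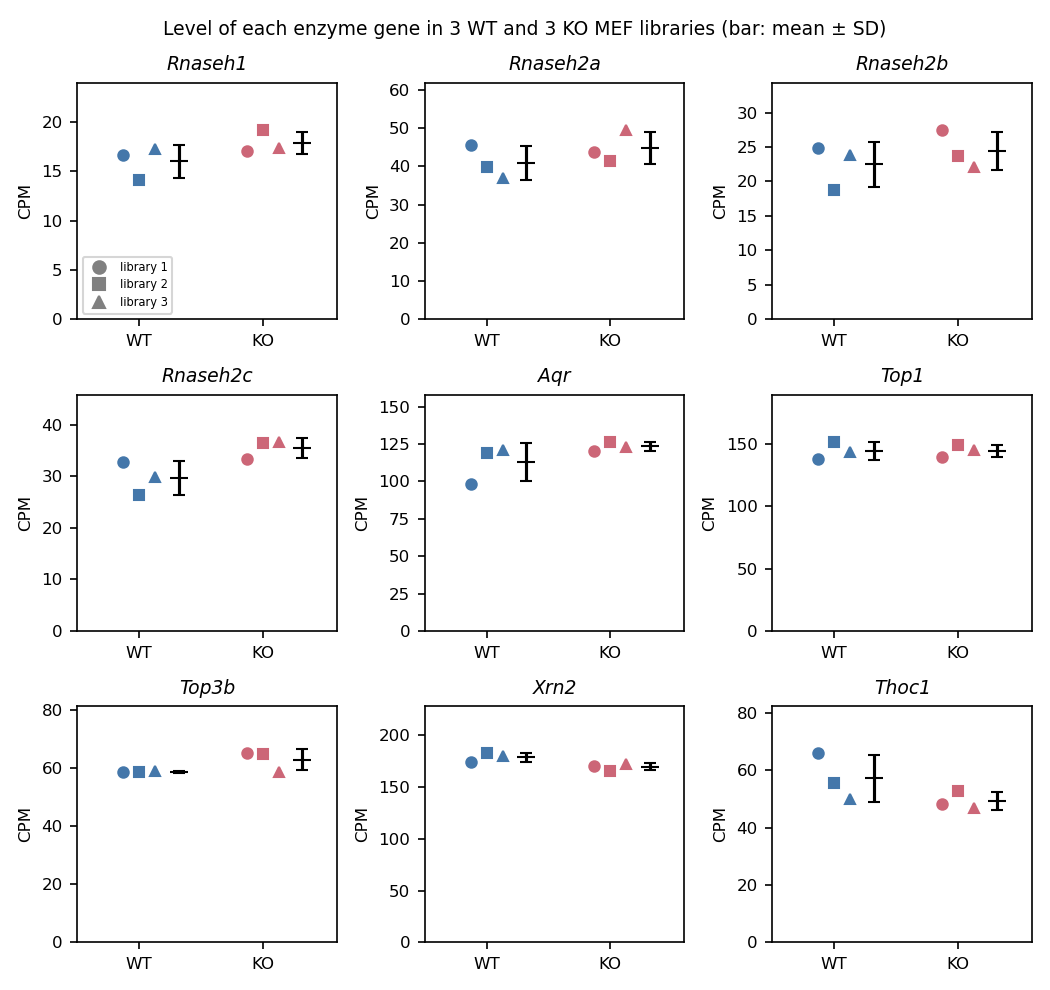
Level of each of the 9 genes in CPM (vertical axes, each from 0) in 3 WT and 3 KO libraries (horizontal axis), with circles, squares and triangles for libraries 1, 2 and 3 and black bars for the mean ± SD (n = 3). WT and KO points overlap in 7 panels, all KO points lie above WT in Rnaseh2c, and all lie below WT in Xrn2.

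The balance of the RNase H2 subunits was compared within each library from FPKM (fragments scaled to the length of the gene and the size of the library), which allows levels of different genes to be set side by side. The log2 ratio of Rnaseh2a to Rnaseh2b was 1.70, 1.91 and 1.46 in WT and 1.51, 1.64 and 2.0 in KO, a mean of 1.69 ± 0.226 (SD, n = 3) against 1.71 ± 0.254 (SD, n = 3). The A subunit transcript was thus 3.23-fold above that of B in WT and 3.28-fold in KO, and the difference of 0.02 was far smaller than the spread (exact permutation test, two-sided, p = 0.9). Rnaseh2a to Rnaseh2c was -0.57 ± 0.148 in WT and -0.69 ± 0.135 in KO (SD, n = 3, exact p = 0.4, adjusted over the 3 ratios p = 0.6). Rnaseh2b to Rnaseh2c was -2.26 ± 0.079 in WT and -2.41 ± 0.238 in KO (SD, n = 3, exact p = 0.4, adjusted p = 0.6). With 3 libraries against 3 the exact test cannot give a p below 0.1. In both genotypes the mRNA of C was the most abundant per length and that of B the least, at 0.208 of C in WT and 0.188 in KO.

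Aqr (ENSMUSG00000040383, chr2:113931651-114017505, minus strand) encodes aquarius, the helicase that binds introns in the spliceosome. It had 98.3, 119 and 121 CPM in WT and 120, 126 and 123 CPM in KO. WT1 was far below the other 5 libraries, and KO1 lay between WT2 and WT3, so the groups overlapped. The log2 fold change of 0.13 (SE 0.074, 95% interval -0.02 to 0.27, edgeR adjusted p = 0.386) was 0.04 without WT1.

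Top1 (ENSMUSG00000070544, chr2:160487808-160564684, plus strand) encodes the main nuclear topoisomerase that relaxes supercoils by nicking 1 strand. It had 138, 152 and 144 CPM in WT and 139, 149 and 146 CPM in KO. Both genotypes spanned nearly the same range, and WT held both the lowest and the highest library. The log2 fold change was 0.001 (SE 0.072, 95% interval -0.14 to 0.14, edgeR adjusted p = 0.996), with bounds of 0.907-fold and 1.10-fold, and its sign changed with the scaling and the test used.

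Top3b (ENSMUSG00000022779, chr16:16688600-16710854, plus strand) encodes a topoisomerase that acts on single strands of DNA and RNA. It had 58.5, 58.5 and 59.0 CPM in WT and 65.0, 64.8 and 58.6 CPM in KO. The WT libraries were nearly identical, whereas KO3 fell among them and KO1 and KO2 lay above. The log2 fold change was 0.10 (SE 0.082, 95% interval -0.06 to 0.26, edgeR adjusted p = 0.589), and it was 0.15 without KO3.

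Xrn2 (ENSMUSG00000027433, chr2:146854916-146919920, plus strand) encodes the nuclear 5′ to 3′ exoribonuclease of termination. It had 174, 182 and 179 CPM in WT and 170, 166 and 172 CPM in KO, from 2222 to 3605 counts a library. All KO libraries lay below all WT libraries, as they did for 19.8% of genes with at least 10 CPM. The step was small: the log2 fold change was -0.08 (SE 0.071, 95% interval -0.22 to 0.06, edgeR adjusted p = 0.616), and leaving out 1 library gave -0.10 to -0.06.

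Thoc1 (ENSMUSG00000024287, chr18:9957906-9995489, plus strand) encodes a core subunit of THO. It had 65.8, 55.6 and 49.9 CPM in WT and 48.2, 52.5 and 46.6 CPM in KO. WT3 lay below KO2, and WT1 was the highest library by a wide margin. Its log2 fold change was -0.21 (SE 0.085, 95% interval -0.38 to -0.05, edgeR adjusted p = 0.108). Without WT3 it was -0.30 and called (edgeR adjusted p = 0.020), in a fit that called 16.8% of all genes with at least 10 CPM, and without WT1 it was -0.10 and not called.

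**Figure D2:**
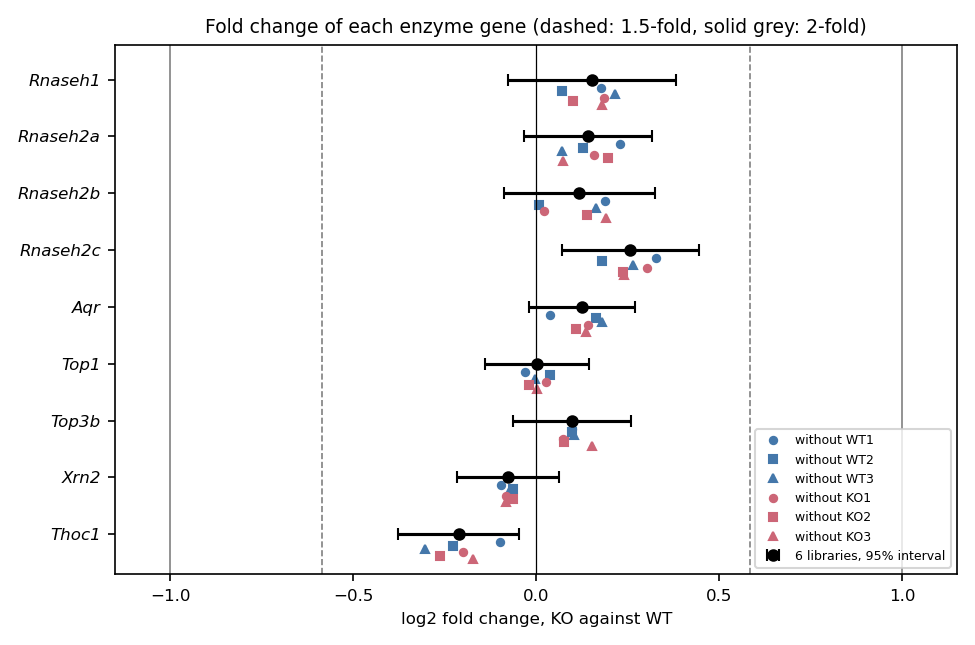
Log2 fold change of KO against WT (horizontal axis) for each gene (vertical axis), with black points and bars for edgeR estimates from 6 libraries and their 95% intervals, and small points for the estimates with 1 WT library (blue) or 1 KO library (red) left out. Every interval lies inside the dashed 1.5-fold lines, and the small points spread most for Thoc1, from -0.30 to -0.10.

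Among the 9 genes, 7 estimates were above 0 and 2 below, with a median log2 fold change of 0.12. The 7 include Top1, whose estimate was next to 0 and fell below it with DESeq2, RLE scaling and limma-voom. The median over the 9378 genes with at least 10 CPM was -0.01, and 46.4% of those had an estimate above 0. By size, the median absolute log2 fold change of the members was 0.126, against 0.114 for those 9378 genes. WT libraries varied more than KO libraries in 8 of the 9 genes, with coefficients of variation of 0.535% to 14.5% in WT and 1.94% to 11.3% in KO. Top3b was the exception. WT1 was the lowest WT library for 4 members and the highest for 4. Intervals from limma-voom, which fits a spread to each gene, ran from 0.759-fold to 1.39-fold.

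Per gene length, the levels of the 9 genes spanned 11.6-fold. Xrn2 was highest, at a mean of 43.5 FPKM over the 6 libraries (range 41.5 to 45.8), followed by Rnaseh2c at 18.9 FPKM (15.3 to 21.3), and neither range overlapped the next. Top1 at 13.8 FPKM (13.2 to 14.6) and Rnaseh2a at 12.2 FPKM (10.4 to 14) overlapped, and Top1 was the higher in 5 of 6 libraries. Aqr followed at 9.96 FPKM (8.32 to 10.7), its range reaching into that of Rnaseh2a, although Rnaseh2a was the higher of both in each library. Top3b at 7.20 FPKM (6.94 to 7.70), Rnaseh1 at 6.53 FPKM (5.45 to 7.39) and Thoc1 at 5.92 FPKM (5.20 to 7.37) overlapped in turn. Rnaseh2b was lowest at 3.74 FPKM (3.01 to 4.37), below the range of Thoc1. For scale, the median of the 12010 genes above 1 FPKM was 7.80 FPKM, so 5 members were above it and 4 below. The lengths behind these values are those of the deposited table, whichever isoform was transcribed.

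**Figure D3:**
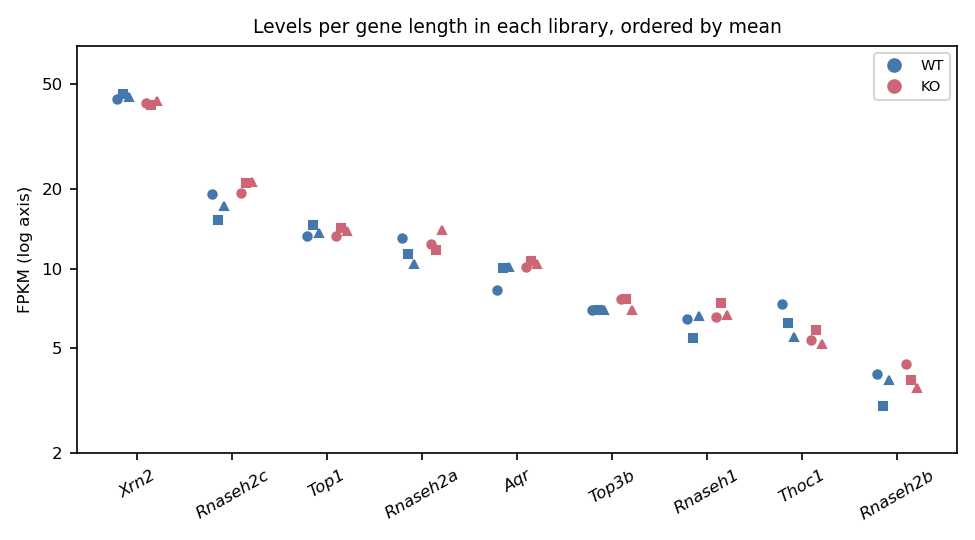
FPKM (vertical log axis) of each gene in every library, with genes ordered by their mean (horizontal axis), WT in blue and KO in red, and circles, squares and triangles for libraries 1, 2 and 3. Xrn2 stands alone at 41.5 to 45.8 FPKM and Rnaseh2b lies lowest at 3.01 to 4.37 FPKM.

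The library kit was not described as marking strand, so reads where genes on opposite strands overlap cannot be assigned from the counts. Thoc1 shares 2424 bases with Usp14, a deubiquitinase of the proteasome on the opposite strand, which had 2255 to 3106 counts a library and a log2 fold change of -0.18 (edgeR adjusted p = 0.116), next to -0.21 for Thoc1. Rnaseh2c shares 4006 bases with Kat5, an acetyltransferase gene of 374 to 648 counts with a log2 fold change of 0.16 (edgeR adjusted p = 0.397). These spans run between gene ends, introns included. Transcripts matched at 100% over 2169 bases for Thoc1 and Usp14, and over 426 bases for Rnaseh2c and Kat5. Rnaseh2a shares only 181 bases with Prdx2, a peroxiredoxin gene, which rose by 0.23 (SE 0.071, edgeR adjusted p = 0.020). On its own strand it also shares 1756 bases with Gm49661, a protein-coding gene listed at 0 counts, whose transcript matched that of Rnaseh2a at 100% over 339 bases, so reads there cannot be assigned between them and the level and ratios of Rnaseh2a carry that limit. The values of these 3 members are uncertain to that extent. Dleu7 overlapped Rnaseh2b and Vpreb1 overlapped Top3b, at no more than 3 and 9 counts. Among transcripts of similar sequence, the pseudogene Gm15703 matched Rnaseh2a at 93.8% over 901 bases and had at most 1 count.

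The mice were of mixed C57BL/6J and ICR background, and whether WT and KO differed in strain alleles around Mcm8 was not tested. On its chromosome lie 3 members. Xrn2 lies 14.2 Mb, Aqr 18.7 Mb and Top1 27.9 Mb from Mcm8. Of genes with at least 10 CPM, 21.8% were called within 10 Mb of Mcm8, 22.5% between 10 and 20 Mb and 19.8% between 20 and 30 Mb, against 18.8% of the 746 such genes on the whole chromosome and 17.0% of 8632 genes on other chromosomes. Between 30 and 40 Mb 25.7% of 70 genes were called, and between 40 and 50 Mb 14.9% of 87. Bins of 10 Mb farther out ran from 11.1% (3 of 27 genes) to 33.3% (8 of 24), with no steady fall with distance. Each bin within 40 Mb was thus above the 17.0% of other chromosomes, and farther bins lay on both sides of it. Whether the bins differed was not tested. None of these 3 members was called.

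The genes that work with the members were examined in 7 lists, of 106 tested genes in all. Of these, 4 rose and 2 fell, 5.66%, with a median log2 fold change of -0.0040, and of the 99 with at least 10 CPM 5 were called (5.05%), against 17.1% of all such genes. The lists were chosen with earlier results of these data known, so these shares are not an independent comparison. Leaving out 1 library gave 11 calls without WT1, 1 without KO1, 3 without KO2 and 2 without KO3, and none of the 6 passed a 2-fold change.

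Of 14 other THO and TREX export factors, 1 rose, with a median of -0.01. It was Leng8, from 81.6, 95 and 98.9 CPM in WT to 118, 111 and 110 CPM in KO (log2 fold change 0.29, SE 0.076, edgeR adjusted p = 0.00206), without overlap. Without KO1 it was not called (edgeR adjusted p = 0.0836). The THO subunits beside Thoc1 were not called. Thoc2 was at -0.04, Thoc3 at -0.02, Thoc5 at -0.01, Thoc6 at -0.0024 and Thoc7 at -0.10 on the log2 scale, and the sign of each changed when 1 library was left out. Without WT1 Thoc2 was at -0.15.

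Of 12 other topoisomerases and partners, 1 fell. Top2b, the topoisomerase II of non-dividing and dividing cells alike, had 281, 292 and 273 CPM in WT and 240, 245 and 227 CPM in KO (log2 fold change -0.25, SE 0.069, edgeR adjusted p = 0.00513). All KO libraries were below all WT libraries, but the call was lost without KO1 (edgeR adjusted p = 0.0563) or KO3 (0.14). Its proliferation-linked paralog Top2a had a log2 fold change of 0.05 (edgeR adjusted p = 0.684), or 0.0045 without WT1, and mitochondrial Top1mt -0.11 (edgeR adjusted p = 0.676). Without KO2 Top1mt was at -0.22, and without KO3 at -0.05. Tdrd3, the scaffold that brings TOP3B to chromatin, had 41.6, 45.5 and 40.9 CPM in WT and 37.3, 36.4 and 37.2 CPM in KO, a log2 fold change of -0.21 (edgeR adjusted p = 0.171), lower in each KO library but not called. Top3a was above WT in each KO library at 0.16 (edgeR adjusted p = 0.385), also not called.

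None of the 6 partners of aquarius in the intron-binding complex and spliceosome was called, and their median was -0.04, with 1, Crnkl1 at -0.17, at an unadjusted p below 0.05 with edgeR and 0 called with DESeq2. Xab2 was at 0.09, Isy1 at 0.10, Zfp830 at -0.12 and Ppie at 0.01 on the log2 scale. With 1 library left out, Xab2 ran from 0.055 to 0.13, Isy1 from 0.052 to 0.15 and Zfp830 from -0.21 to -0.060, and Ppie changed sign. Of 26 genes of transcription termination and 3′ end processing, 1 rose, with a median of -0.01. That gene was Sympk, the scaffold of the cleavage machinery, at 152, 169 and 174 CPM in WT and 189, 193 and 196 CPM in KO (log2 fold change 0.22, SE 0.071, edgeR adjusted p = 0.028), and it was not called without any 1 of KO1, KO2 and KO3 (edgeR adjusted p from 0.122 to 0.16). Xrn1, the cytoplasmic counterpart of Xrn2, had a log2 fold change of -0.04 (edgeR adjusted p = 0.823), and of -0.16 without WT1, where it was not called.

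Ribonucleotide excision, the repair that RNase H2 starts and that a polymerase, flap nuclease and ligase complete, had 2 of 14 genes higher, 0 lower and a median of 0.11. Pold1, the catalytic subunit of polymerase delta, had 97.5, 97.3 and 112 CPM in WT and 118, 119 and 126 CPM in KO (log2 fold change 0.24, SE 0.075, edgeR adjusted p = 0.018), a call lost with limma-voom (adjusted p = 0.0519) and without WT2, KO1, KO2 or KO3 (edgeR adjusted p from 0.0818 to 0.171). Pcna, the sliding clamp, had 223, 197 and 185 CPM in WT and 263, 269 and 263 CPM in KO (log2 fold change 0.40, SE 0.070, edgeR adjusted p = 5.58e-07). Its pseudogene Pcna-ps2 moved the other way, from a mean of 66.6 CPM in WT to 0.914 CPM in KO. Summed, the pair stood at a mean of 268 CPM in the WT libraries and 266 CPM in the KO libraries (log2 difference -0.01), so the rise of Pcna is uncertain, as reads of near-identical copies can be assigned to either. Pcna lies near Mcm8, at chr2:132091082-132095234 against chr2:132658061-132686117. Whether strain alleles of this stretch differed between the genotypes was not tested.

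Genes of Aicardi-Goutières syndrome and nucleic acid sensing had 0 of 14 higher and 1 lower, with a median of 0.02. Ifit3, an interferon-stimulated gene, fell from 4.94, 4.42 and 4.51 CPM to 3.07, 2.52 and 3.12 CPM (log2 fold change -0.66, SE 0.227, edgeR adjusted p = 0.041). It was not called with DESeq2 (adjusted p = 0.116), with limma-voom (adjusted p = 0.0924) or without any 1 library other than WT2 (edgeR adjusted p from 0.0707 to 0.193). Ifnb1 was listed at 0 in all libraries, as was Trex1, whose gene lies wholly within Atrip on the same strand, so that reads of the 2 genes cannot be told apart. Of 20 helicases that unwind RNA-DNA hybrids, 0 were called with edgeR, 1 was called with DESeq2 and 2 had an unadjusted p below 0.05 with edgeR, with a median of -0.05. The edgeR estimates were -0.17 for Ddx21, the gene called with DESeq2, and -0.17 for Ddx18, both named after their values were seen. Among them Dhx9 had a log2 fold change of -0.03 (95% interval -0.16 to 0.10, edgeR adjusted p = 0.849) and Ddx5 of -0.06 (95% interval -0.18 to 0.07, edgeR adjusted p = 0.682), or -0.03 without WT1. Genes of the cell cycle were read beside them. Of 20 S-phase genes 0 were called with edgeR, 1 was called with DESeq2 (Rrm1, at -0.18 with edgeR and named after its value was seen) and 5 had an unadjusted p below 0.05 with edgeR (median 0.01), and of 15 G2/M genes Plk1 rose (0.30, edgeR adjusted p = 0.000872) and Kif11 fell (-0.24, edgeR adjusted p = 0.012), with a median of -0.02 and 4 at an unadjusted p below 0.05. DESeq2 called 3 of the 15, the added gene being Cdc20 (0.20 with edgeR, named after its value was seen). The call on Kif11 was lost without KO1 (edgeR adjusted p = 0.148) or KO3 (0.167).

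**Figure D4:**
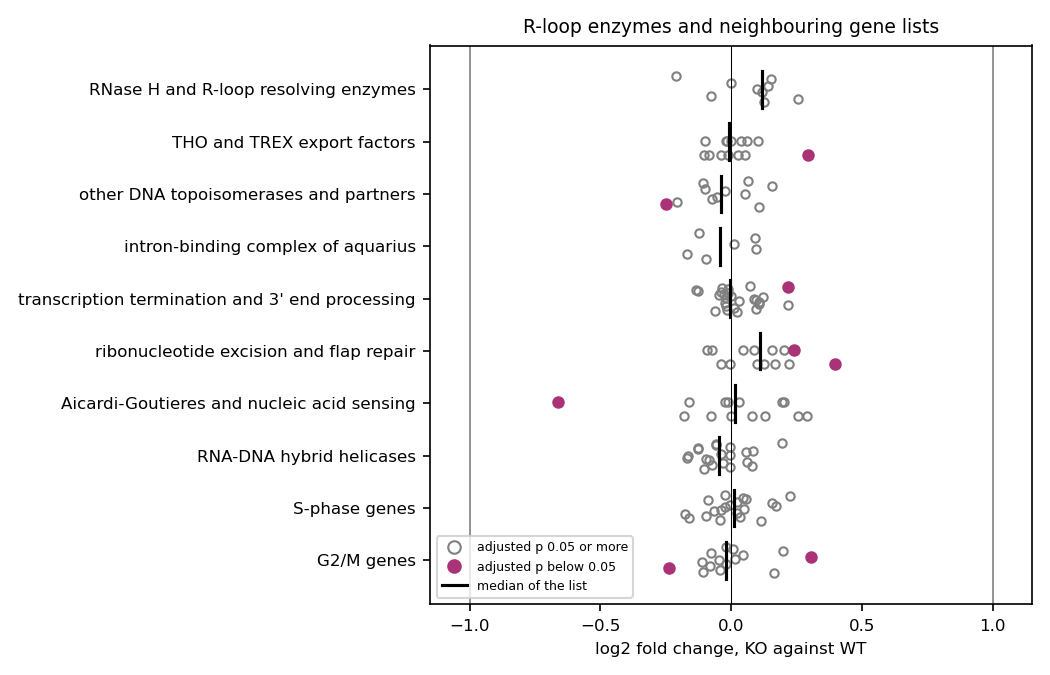
Log2 fold change of KO against WT (horizontal axis) of each gene with a mean of at least 1 CPM in the 9 members and 9 neighbouring lists (vertical axis), with filled points for genes called with edgeR at an adjusted p below 0.05, open points for the others and a black line for the median over all tested genes of a list. The 9 members hold no filled point, and all points shown lie within the grey 2-fold lines. Spo11, with counts in 1 library, is not drawn.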

How the data were processed

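TRIzol RNA of 3 WT and 3 KO MEF samples was made into libraries with the NEBNext Ultra kit and sequenced in pairs. Per the labels, the submitters' processing notes name fastp, HISAT2 2.0.5 and featureCounts 1.5.0-p3, whose strand setting was not given in the sources used here, and the builds GRCm38 and mm10, whereas gene coordinates in the deposited tables are those of GRCm39. The authors deposited raw counts of reads per gene and FPKM values, which were proportional to counts over gene length within a library. Library totals computed from FPKM differed from the count totals by -1.03% to 1.53%.

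The 9 members and all gene lists were chosen with earlier results of these data known. Genotypes were taken from the labels. Counts of the 26898 genes with a count above 0 in at least 1 of the 6 libraries were tested with edgeR 4.0.16 (quasi-likelihood, TMM, no covariate) and Benjamini-Hochberg adjustment over all of them. The estimated spread of every gene was taken from the trend over expression. CPM are TMM-scaled. Genes were named by a rule: the members, Mcm8, listed partners of each enzyme, and in each list up to 4 called genes with the largest change and a mean of at least 1 CPM. Prdx2, Usp14, Kat5, Gm15703, Gm49661, Dleu7, Vpreb1, Atrip and Pcna-ps2 were named for their overlap or likeness with these, Ifnb1, Trex1 and markers at 0 for that value, Spo11 for its few counts, Xist as a sex-linked gene, and Krt8, Sox2, Crnkl1, Cdc20, Ddx18, Ddx21 and Rrm1 to complete a small count after their values were seen. Alternatives were DESeq2 1.42.0, limma 3.58.1 (voom, or log2 of FPKM plus 1 or 0.1), RLE scaling, 2 other gene filters, a replicate block and leaving out each library. Replicate numbers did not pair the samples (same-number correlation of deviations -0.03 to 0.04). On data simulated for KO against WT over 25868 genes, edgeR recovered 87 of 100 genes changed by 0.5 (log2) and 100 of 100 changed by 1. Ratios of FPKM were tested with SciPy 1.17.1. Intervals cover the spread between libraries as fitted, and the least covered member had 198 counts, a counting error of 6.40% for the WT mean. The authors' comparison results, the reads and the other assays of the study were not used here.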

Additional observations from a re-analysis of the deposited data

How the results depend on the processing

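None of the 9 members was called, and none passed a 2-fold change, with DESeq2, RLE scaling, either gene filter, limma-voom, limma on log2(FPKM + 0.1) or log2(FPKM + 1), or the replicate block (0 called, and no call on a gene named by the rule changed with it, while 2365 genes in all were called against 2420). Replicate numbers correlated at -0.03 to 0.04, so no pairing was assumed. Leaving out 1 library gave 0 to 2 members called: 2 without WT1 (Rnaseh2a and Rnaseh2c) and 1 without WT3 (Thoc1). Over those fits log2 fold changes ran from 0.071 to 0.23 for Rnaseh2a, 0.18 to 0.33 for Rnaseh2c, -0.30 to -0.10 for Thoc1 and -0.031 to 0.038 for Top1. Top1 also changed sign with DESeq2 (-0.000174), RLE scaling (-6.65e-05) and limma-voom (-0.00154). The partner lists had 1 call with limma on log2(FPKM + 0.1), 0 on log2(FPKM + 1) and 1 to 11 with a library left out, against 6 with edgeR and 6 with the replicate block. Signs changed with a library left out for Thoc2 (-0.15 to 0.10), Thoc3 (-0.082 to 0.057), Thoc5 (-0.049 to 0.036), Thoc6 (-0.057 to 0.087), Thoc7 (-0.16 to 0.019), Xrn1 (-0.16 to 0.038), Ppie (-0.14 to 0.11) and Dhx9 (-0.069 to 0.0017), and for Thoc6 with filterByExpr (0.0018) and limma-voom (0.0058). The ratio of Rnaseh2a to Rnaseh2b differed between genotypes by -0.12 to 0.13 with a library left out. Summing Pcna with Pcna-ps2, an alternative chosen after the data were seen, gave -0.012. The cause of these changes was not tested. Depth limits Rnaseh1 and Rnaseh2b most.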
